A study of Homo sapiens with 6 samples.

Results

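The genes described here are 10 transcription factors of the AP-1 and immediate early groups, taken by symbol from the 57133 symbols of the count table: *FOS*, *FOSB*, *FOSL1*, *FOSL2*, *JUN*, *JUNB*, *JUND*, *ATF3*, *EGR1* and *MYC*. They were measured by poly(A) RNA-seq in T98G cells, an established human glioblastoma (GBM) line. Both groups were CBX8 knockout cells made with a guide RNA against *CBX8*, and both carried the doxycycline-dependent activator rtTA and were given doxycycline at 1 μg/ml for 72 h. CBX8 KO cells (3 libraries) carried the empty TetO-FUW vector, and WT CBX8 re-expression cells (3 libraries) carried that vector with V5-tagged wild-type CBX8. The genotype label of the re-expression samples reads wild type, while their titles and the study's methods describe re-expression in the knockout line, which was followed here. Each stable line was selected with antibiotics, the sources do not say whether the knockout line is a single clone, and a difference between separately selected lines cannot be told apart from a response to CBX8. Cells grew in medium with fetal bovine serum, and no serum withdrawal or stimulation is given in the labels.

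AP-1 is a dimer of leucine zipper proteins, in which a Jun protein pairs with itself or with a Fos or ATF protein to bind a short DNA element. Fos proteins do not pair with one another, so the abundance of each subunit shapes which dimers form. Many of these genes are immediate early genes, switched on by serum, growth factors or stress within minutes through serum response factor (SRF) and its partners, without new protein synthesis. *EGR1*, a zinc finger factor, and *MYC*, a bHLH leucine zipper factor that pairs with MAX and raises genes of ribosome assembly and metabolism, respond to the same signals. CBX8 is a subunit of Polycomb repressive complex 1, which keeps bound genes silent.

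Library totals lay between 7950190 and 8659796 counts. *CBX8* had 83 to 104 counts in the CBX8 KO libraries and 27791 to 31408 upon re-expression, a 297-fold difference by edgeR. The series holds no library of T98G cells with CBX8 intact. How the re-expressed level compares with that before the knockout was therefore not measured. Of 10 glial and glioblastoma markers, 6 had at least 10 counts in every library, led by *VIM* and *CD44*, while *SOX2* and *S100B* had 0 in all 6. *NES*, *SOX2*, *S100B* and *CHI3L1* were not tested. Of the 6 markers that were tested, 3 were called lower upon re-expression, where 6.63% of all tested genes were. They were *SLC1A3* (-0.45 on the log2 scale), *SOX9* (-0.27) and *CD44* (-0.21). *OLIG2* (0.85), *GFAP* (0.68) and *VIM* (0.05) lay above 0 and were not called. The summed markers of endothelial and of epithelial cells reached at most 0.705 CPM in a library. Haematopoietic markers summed to between 3.03 and 4.22 CPM in CBX8 KO and between 3.08 and 4.40 CPM upon re-expression (0 of 5 called). Neuronal markers summed to between 17.0 and 18.2 CPM in CBX8 KO and between 22.2 and 28.0 CPM upon re-expression (1 of 4 called). Fibroblast markers summed to between 525 and 557 CPM and between 588 and 616 CPM (1 of 5 called, beside 12.9% of all tested genes). The part of these markers in the results was not tested. Mitochondrial genes took 6.85% to 7.96% of counts in CBX8 KO and 5.96% to 6.99% upon re-expression, which was not tested as a source of any result either. Counts of a bulk sample do not separate fewer cells expressing a gene from less RNA per cell. The sources do not say whether the libraries of a group came from separate cultures, so each SD and p-value describes spread between libraries. Each of the 10 genes matched 1 place in hg38 over at least 95% of its canonical transcript, with no second match at that level. For *FOSL1* the next best place matched 84.8% of the bases, so some of its reads could have been placed there or left out.

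The 10 factors ranged widely in level, and 1 of them, *FOSL1*, stood far above the others in CPM per kb in both groups. Here CPM is the count scaled by library size and kb is the length of the canonical transcript. Comparisons between genes, and shares of a family, depend on these lengths, which were 1.70 kb for *FOSL1* and 6.71 kb for *FOSL2*. Before division by length, these 2 genes averaged 358 and 214 CPM in CBX8 KO. In CBX8 KO, *FOSL1* was at 210 ± 9.47 CPM per kb (SD, n = 3). It was 6.60-fold above the next gene, *FOSL2* (31.9 ± 0.63 CPM per kb), which overlapped *JUN* (30.6 ± 1.44 CPM per kb) in its libraries, as *JUN* did with *MYC* (30.1 ± 0.76 CPM per kb). *JUND*, *JUNB* and *ATF3* followed at 9.83 ± 0.22, 8.34 ± 0.27 and 7.29 ± 0.51 CPM per kb, each pair of neighbours without overlap. *EGR1* was at 2.59 ± 0.58 CPM per kb, *FOSB* at 0.63 ± 0.31 and *FOS* at 0.27 ± 0.08. Upon WT CBX8 re-expression the order of the 10 genes by mean was the same. There *FOSL2* (35.1 ± 0.92 CPM per kb), *JUN* (26.7 ± 0.28) and *MYC* (20.4 ± 0.51) no longer overlapped, while *JUND* overlapped *JUNB*, and *JUNB* overlapped *ATF3*.

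**Figure D1:**
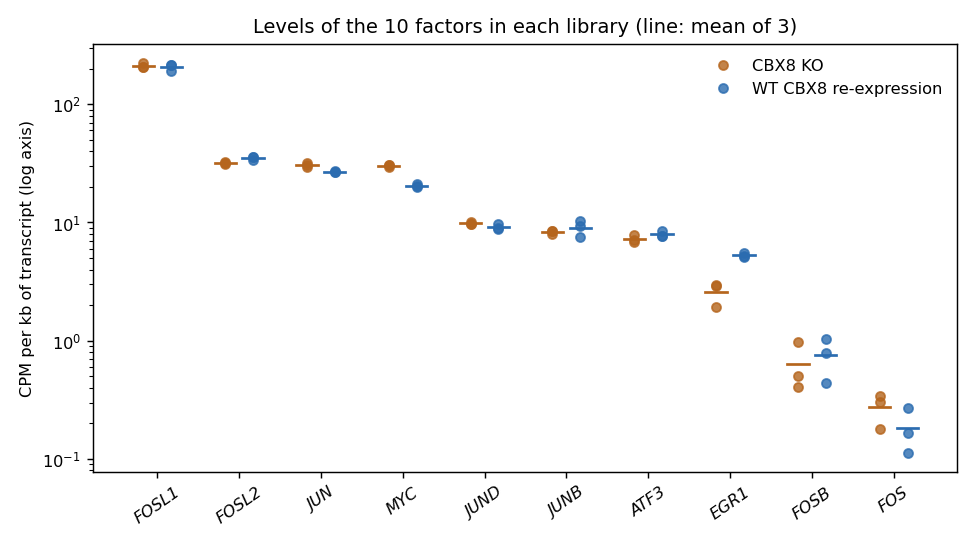
Level of each of the 10 factors in CPM per kb of transcript (log axis), with 1 point per library, CBX8 KO in brown, WT CBX8 re-expression in blue and a line at the mean of 3 libraries. *FOSL1* is the highest gene in every library, *FOS* and *FOSB* lie near 1 CPM per kb or below it, and the groups are well apart for *EGR1* and *MYC*.

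Comparing WT CBX8 re-expression with CBX8 KO asks which of these factors differ when CBX8 is expressed from the vector. *EGR1* rose, *MYC* and *JUN* fell, and the other 6 factors tested did not pass the threshold. Tests were run with edgeR (quasi-likelihood F-test), and the FDR is the p-value after Benjamini-Hochberg adjustment over 14461 tested genes, called below 0.05. Each log2 fold change is followed by its standard error (SE). *FOS* did not pass the filter on low counts, so 9 of the 10 genes were tested. Of these 9, 2 were called lower, where 6.63% of all tested genes were, and 1 was called higher, where 6.23% were. The libraries of the groups did not overlap for 4 of the 9 (*EGR1*, *FOSL2*, *MYC* and *JUN*), against 28.9% of all tested genes. The median log2 fold change of the 9 was 0.11, and that of all tested genes was 0.0049.

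**Figure D2:**
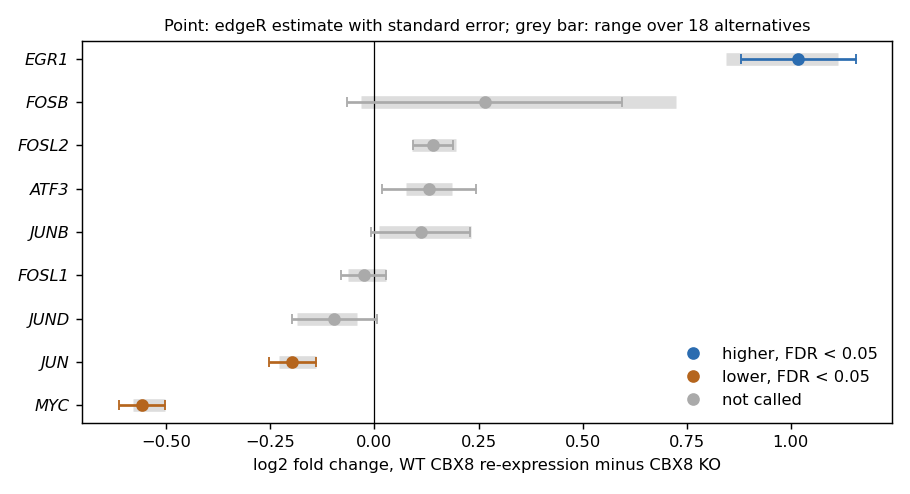
Log2 fold change of the 9 tested factors, WT CBX8 re-expression minus CBX8 KO, with the standard error from edgeR as error bar and, in light grey, the range over 18 alternative analyses. *EGR1* lies at 1.02 and *MYC* at -0.56, and the grey ranges of *FOSB* and *FOSL1* reach both sides of 0.

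*EGR1* (hg38 chromosome 5 from 138465479 to 138469303, plus strand, 2 exons) encodes a zinc finger activator that binds GC-rich promoters. Its counts were 73, 77 and 47 with the empty vector and 136, 143 and 145 with WT CBX8. Every re-expression library was above every CBX8 KO library, and the low value of CBX8 KO replicate 3 gave the KO group the wider spread. In CPM, *EGR1* went from 8.13 ± 1.83 to 16.5 ± 0.66 (SD, n = 3 each), a 2.03-fold rise. On the log2 scale this was 1.02 ± 0.14 (SE, edgeR FDR = 7.1e-06), above the value of 99.3% of all tested genes. It was called in all 18 alternatives, with log2 fold changes between 0.85 and 1.11. The lowest of these came without CBX8 KO replicate 3.

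The RefSeq promoter windows, which run from 250 bases before to 50 bases after the start, were read for the members whose groups did not overlap and that the table holds. They are shown because immediate early genes are grouped by such elements. Another reason is that, among the members with a window, only the *EGR1* window holds CArG boxes, the element bound by SRF. Capitals mark every match, on either strand, to the CArG box, the AP-1 site TGAGTCA, the cyclic AMP response element TGACGTCA, the EGR site GCGTGGGCG and the E-box CACGTG. The windows are from GRCh38.p14, at chr5:138465229-138465528 (plus strand) for *EGR1*, chr2:28392608-28392907 (plus strand) for *FOSL2* and chr1:58783998-58784297 (minus strand) for *JUN*.
EGR1: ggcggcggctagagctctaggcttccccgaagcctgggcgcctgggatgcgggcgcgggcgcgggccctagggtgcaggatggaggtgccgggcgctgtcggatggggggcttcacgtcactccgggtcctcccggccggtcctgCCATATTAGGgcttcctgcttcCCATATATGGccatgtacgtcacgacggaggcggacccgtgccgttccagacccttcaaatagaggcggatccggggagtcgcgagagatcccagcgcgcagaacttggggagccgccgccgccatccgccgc
FOSL2: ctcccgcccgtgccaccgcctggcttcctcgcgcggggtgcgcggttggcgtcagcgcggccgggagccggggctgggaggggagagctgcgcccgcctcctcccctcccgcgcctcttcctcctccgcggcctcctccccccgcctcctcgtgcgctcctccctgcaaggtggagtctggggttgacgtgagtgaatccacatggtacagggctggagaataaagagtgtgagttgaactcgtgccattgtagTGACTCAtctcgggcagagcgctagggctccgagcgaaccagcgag
JUN: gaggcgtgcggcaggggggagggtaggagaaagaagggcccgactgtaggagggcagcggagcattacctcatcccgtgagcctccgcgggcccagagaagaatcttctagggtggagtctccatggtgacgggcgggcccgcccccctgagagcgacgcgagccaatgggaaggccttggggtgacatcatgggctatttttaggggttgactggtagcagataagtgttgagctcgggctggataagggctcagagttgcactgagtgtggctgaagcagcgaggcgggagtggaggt

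The *EGR1* window holds 2 CArG boxes, which begin 105 and 83 bases upstream of the start. Of the 35116 promoter windows in the table, 1.29% hold a CArG box. The *FOSL2* window holds the AP-1 site on the opposite strand, beginning 4 bases after the start base, where 4.95% of all windows hold that site. The RefSeq start of *FOSL2* lies inside the longer GENCODE gene. The *JUN* window holds no exact match to the 5 motifs. Of the 8 members with a window, the only other match was a cyclic AMP response element in *JUND*, 200 bases upstream, which 1.85% of all windows hold. The EGR site (0.795% of all windows) and the E-box (7.26%) were in no member window. None of the 5 motifs occurs in the windows of *FOS*, *FOSB*, *JUNB* and *ATF3*. Among 27 other immediate early genes with a window, the CArG box was found in 2 (*EGR2* and *SRF*), the cyclic AMP response element in 5, the E-box in 6 and the AP-1 and EGR sites in 0. These matches describe letters in a window of 300 bases and were not tested against binding. Elements outside the window, and sites that differ from a motif by a base, were not counted. A gene without a match here can therefore still hold such an element.

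*MYC* (chromosome 8 from 127735434 to 127742951, plus strand) had 901, 957 and 850 counts in CBX8 KO and 631, 666 and 655 counts upon re-expression. The 3 re-expression values were the lowest 3 of the 6, with little spread in either group. The level went from 112 ± 2.84 to 76.1 ± 1.91 CPM (SD, n = 3 each), so that *MYC* fell by 32.1%. On the log2 scale the change was -0.56 ± 0.05 (SE, edgeR FDR = 3.5e-08), and 1.92% of all tested genes had a lower one. It lay between -0.58 and -0.50 over the 18 alternatives and missed only the call that required a change of at least 1.5-fold. Exons of *MYC* overlap exons of *CASC11* on the opposite strand, and the counting is not stated to use strand. In CPM per kb, *MYC* was 10.4, 10.5 and 15.2 times the level of *EGR1* in the CBX8 KO libraries and 3.91, 3.93 and 3.81 times that level upon re-expression.

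Genes that MYC is known to raise were mostly lower upon re-expression. Of a list of 30 such genes, 29 were tested, 22 were called lower and 0 higher, and 28 had a log2 fold change below 0. By limma voom the counts were also 22 lower and 0 higher, by DESeq2 they were 15 and 0, and at an unadjusted p under 0.05 they were 22 and 0. The median log2 fold change of the list was -0.19, beside 0.0049 over all tested genes, of which 6.63% were called lower. These genes are abundant, so the 27 whose average log2 CPM reached 5 were also set beside the 6120 tested genes at that level. Of the 27, 22 were called lower and 0 higher, and of the 6120 genes 11.9% were called lower and 7.27% higher, with a median of -0.02. The lowest FDRs were those of the transferrin receptor *TFRC* (-0.47 ± 0.05), the lactate dehydrogenase subunit *LDHA* (-0.45 ± 0.05), the nucleolar methyltransferase *FBL* (-0.29 ± 0.05) and the purine synthesis enzyme *PAICS* (-0.28 ± 0.05). *ODC1*, the polyamine synthesis enzyme, was the single gene above 0, at 0.05 (edgeR FDR = 0.63). The count of 22 fell to 9 with library size as the only scaling, to 10 at FDR < 0.01 and to 0 with a minimum 1.5-fold change, which no gene of the list reached. It was 12 without CBX8 KO replicate 2, 12 without CBX8 KO replicate 3, 14 without re-expression replicate 2 and 14 without re-expression replicate 3.

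Among the partners and antagonists of MYC, 10 of 13 genes were tested, 1 was called lower and 1 higher (6.63% and 6.23% of all tested genes), 5 lay below 0 and 5 above it, and the median log2 fold change was -0.0051. *MAX*, the obligate partner of MYC, averaged 41.9 ± 2.38 CPM with the empty vector and 37.8 ± 1.89 CPM with WT CBX8 (SD, n = 3 each), and the groups overlapped (log2 fold change -0.15, edgeR FDR = 0.25). The MYC antagonist *MXI1* fell by 0.37 ± 0.11 on the log2 scale (SE, edgeR FDR = 0.020), a call not made by DESeq2 or with library size scaling. It was also lost without CBX8 KO replicate 1 or 2 or re-expression replicate 2 or 3, with an FDR of at most 0.0928. The MAX-binding repressor *MGA* rose by 0.41 ± 0.09 (SE, edgeR FDR = 0.0017). *MYCN* had 1 count in 1 CBX8 KO library and 0 in the other libraries, and *MYCL* had at most 5 counts in a library.

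Among the Jun family, *JUN* fell and *JUNB* and *JUND* did not pass the threshold. *JUN* (chromosome 1 from 58776845 to 58784048, minus strand, a single exon) had 788, 881 and 745 counts in CBX8 KO and 737, 772 and 727 counts upon re-expression. The raw counts of the groups interleave, and in CPM, which corrects for library size, the groups separate. They ran from 95.3 to 105 CPM in CBX8 KO and from 86.6 to 88.2 CPM upon re-expression. On the log2 scale the change was -0.20 ± 0.06 (SE, edgeR FDR = 0.017), so that *JUN* fell by 12.8%. The call was kept in 12 of the 18 alternatives. It was lost with DESeq2 (FDR = 0.068), with library size scaling (0.095), without CBX8 KO replicate 2 (0.13) and without re-expression replicate 2 (0.063), as well as under both stricter thresholds.

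*JUNB*, often an antagonist of JUN in cell growth, had 124, 130 and 115 counts in CBX8 KO and 146, 120 and 157 counts upon re-expression. Its groups overlapped (log2 fold change 0.11 ± 0.12, edgeR FDR = 0.62), and the spread was wider upon re-expression, at 15.4% of the mean against 3.21% in CBX8 KO. Its exons overlap those of *HOOK2* on the opposite strand. *JUND*, the Jun gene that responds least to growth signals, had 149, 157 and 152 counts in CBX8 KO and 160, 150 and 145 upon re-expression, again with overlap (log2 fold change -0.10 ± 0.10, edgeR FDR = 0.61). In CPM per kb, *JUN* made up 62.7% ± 1.12 of the summed Jun family in CBX8 KO and 59.5% ± 2.41 upon re-expression (SD, n = 3 each), with overlap between groups. The summed family was 48.8, 50.2 and 47.4 CPM per kb in CBX8 KO and 45.7, 43.5 and 45.7 CPM per kb upon re-expression, without overlap.

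No Fos family gene passed the threshold, and the family consisted almost entirely of *FOSL1* and *FOSL2* mRNA. *FOSL1* (chromosome 11 from 65892049 to 65900573, minus strand), which encodes FRA1, lacks the strong activation domain of FOS. It had 2759, 2933 and 2940 counts in CBX8 KO and 2756, 3168 and 3089 counts upon re-expression. The groups overlapped, with 358 ± 16.1 and 351 ± 23.8 CPM (SD, n = 3 each) and a log2 fold change of -0.03 ± 0.05 (SE, edgeR FDR = 0.82). The sign of this value changed with library size scaling, to 0.03, without CBX8 KO replicate 3 (0.01) and without re-expression replicate 1 (0.03).

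*FOSL2* (chromosome 2 from 28392448 to 28417317, plus strand), which encodes FRA2, had 1728, 1764 and 1671 counts in CBX8 KO and 1946, 2089 and 2016 counts upon re-expression. All re-expression libraries were above all CBX8 KO libraries, at 236 ± 6.16 against 214 ± 4.25 CPM (SD, n = 3 each). The log2 fold change of 0.14 ± 0.05 (SE) lay just outside the threshold, with an edgeR FDR of 0.052. It passed with upper quartile scaling (FDR = 0.033), library size scaling (0.0049) and limma voom (0.049). Over all alternatives the FDR lay between 0.0049 and 0.21.

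*FOS* and *FOSB*, the family members with full activation domains, were close to the limit of detection. *FOS* had 3, 6 and 5 counts in CBX8 KO and 3, 5 and 2 counts upon re-expression, and a difference was not detectable at this depth. *FOSB* had 15, 13 and 29 counts in CBX8 KO and 14, 26 and 33 upon re-expression, with overlapping groups (log2 fold change 0.27 ± 0.33, edgeR FDR = 0.68). Without re-expression replicate 3 the *FOSB* value was -0.03, and without CBX8 KO replicate 3 it was 0.72. As a share of the summed Fos family in CPM per kb, *FOSL1* made up 86.5% ± 0.46 in CBX8 KO and 85.1% ± 0.45 upon re-expression (SD, n = 3 each), and *FOSL2* 13.1% ± 0.57 and 14.5% ± 0.55. *FOS* and *FOSB* together stayed under 1% of the family in each library. The ratio of *FOSL1* to *FOSL2* was 6.30, 6.56 and 6.94 in the CBX8 KO libraries and 5.59, 5.98 and 6.04 in the re-expression libraries. The groups did not overlap in this ratio, which does not depend on the scaling of the libraries.

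**Figure D3:**
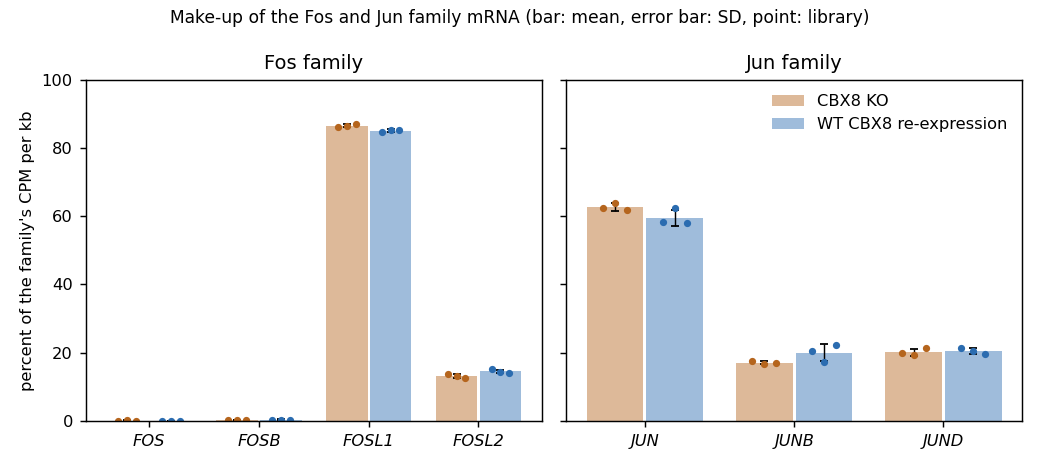
Share of each gene in the summed CPM per kb of the Fos family (left) and the Jun family (right), with bars at the mean of 3 libraries, SD as error bars and 1 point per library. *FOSL1* holds between 84.6% and 87.0% of the Fos family in all 6 libraries, and *JUN* between 58.1% and 64.0% of the Jun family.

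*ATF3*, a stress-induced repressor or activator that can pair with JUN, had 110, 112 and 119 counts in CBX8 KO and 141, 130 and 126 counts upon re-expression. In CPM the groups overlapped, at 14.1 ± 0.99 and 15.5 ± 0.95 (SD, n = 3 each), with a log2 fold change of 0.13 ± 0.11 (SE, edgeR FDR = 0.51). Other leucine zipper factors that pair with AP-1 proteins or bind related sites were also read. Of 15 such genes, 13 were tested, 2 were called lower and 0 higher, with 2 and 1 at an unadjusted p under 0.05, and limma voom also called 0 higher. The share called, 15.4%, was near the 12.9% of all tested genes. *MAF* fell by 0.58 ± 0.12 on the log2 scale (SE, edgeR FDR = 0.0012). *MAFG*, a small MAF protein without an activation domain, fell by 0.21 ± 0.06 (SE, edgeR FDR = 0.017), and was not called by DESeq2. Leaving out CBX8 KO replicate 2 or 3 or re-expression replicate 2 also ended the call (FDR of at most 0.0996). *ATF2*, *CREB1* and *JDP2* had log2 fold changes between -0.08 and -0.0024, with edgeR FDRs of 0.93, 0.99 and 0.73.

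Other immediate early genes moved in both directions. Of 39, 32 were tested, 7 were called higher and 5 lower, beside 6.23% and 6.63% of all tested genes. The median log2 fold change was 0.12. The 4 risen genes with the lowest FDRs were *CTGF* (0.59 ± 0.09) and *CYR61* (0.29 ± 0.05), both secreted matricellular proteins, the EGF receptor ligand *HBEGF* (0.58 ± 0.09) and the kinase *SGK1* (0.53 ± 0.09). The other 3, named after their values were seen, were the MAP kinase phosphatase *DUSP1* (0.60 ± 0.11), *GADD45A* (0.35 ± 0.10) and *IER2* (0.29 ± 0.09). *DUSP1* had 118, 105 and 103 counts in CBX8 KO and 165, 180 and 180 counts upon re-expression, with no overlap. *CTGF* had 216, 234 and 241 counts in CBX8 KO and 342, 397 and 364 upon re-expression, also with no overlap. The fallen genes were *PHLDA1* (-0.23 ± 0.05), the mRNA decay factor *ZFP36L1* (-0.22 ± 0.05), the pseudokinase *TRIB1* (-0.39 ± 0.09), the GTPase *RHOB* (-0.23 ± 0.06) and the prostaglandin synthase *PTGS2* (-0.86 ± 0.29), the last named after its values were seen. *PTGS2* had 13 to 35 counts in a library and overlapping groups, and neither it nor *RHOB*, *IER2* or *GADD45A* was called by DESeq2. The calls of *PTGS2* and *IER2* were each lost when any of 4 libraries was left out (FDR of at most 0.19 and 0.0974), which were CBX8 KO replicates 2 and 3 and re-expression replicates 1 and 2 for *PTGS2*, and CBX8 KO replicates 1 and 2 and re-expression replicates 2 and 3 for *IER2*. *RHOB* was lost without CBX8 KO replicate 1 or re-expression replicate 2 or 3 (at most 0.0935), and *GADD45A* without CBX8 KO replicate 3 or re-expression replicate 2 (at most 0.109). *IER3* was listed at 0 in every library and its sequence also lies on 5 alternate contigs of hg38, so its level is uncertain. The relatives of *EGR1* were barely detected, with at most 3 counts of *EGR2*, 4 of *EGR3* and 0 of *EGR4* in a library.

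SRF partners, kinases and coactivators act upstream of the immediate early genes. All 25 on the list were tested, 1 was called lower and 2 higher, and the median log2 fold change was 0.05. The 3 of 25 called compare with 12.9% of all tested genes, a share near that background. *SRF* itself averaged 82.4 ± 6.10 CPM with the empty vector and 90.8 ± 1.98 CPM with WT CBX8 (SD, n = 3 each), with overlapping groups (log2 fold change 0.14, edgeR FDR = 0.13). The kinase *MAP2K3*, which acts on p38, rose by 0.29 ± 0.07 (SE, edgeR FDR = 0.0077), and the SRF coactivator *MRTFB* by 0.23 ± 0.06 (SE, edgeR FDR = 0.011), the latter not called by DESeq2. *MAP2K3* lost its call without CBX8 KO replicate 1 (FDR = 0.0751), and *MRTFB* without CBX8 KO replicate 2 or re-expression replicate 2 or 3 (at most 0.0728). *RPS6KA3*, a ribosomal S6 kinase, fell by 0.40 ± 0.07 (SE, edgeR FDR = 9.2e-05).

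Known AP-1 target genes also moved in both directions. Of 30, 25 were tested, 8 were called higher and 5 lower, beside 6.23% and 6.63% of all tested genes, and the median log2 fold change was -0.0089. The higher calls numbered 5 without CBX8 KO replicate 2 and 5 without re-expression replicate 2, and the lower calls 3 without CBX8 KO replicate 1. The urokinase gene *PLAU* had 735, 861 and 781 counts in CBX8 KO and 1298, 1382 and 1327 counts upon re-expression, a rise of 0.67 ± 0.05 on the log2 scale (SE, edgeR FDR = 1.3e-09). *HBEGF*, which is on this list too, *CCND1* (0.23 ± 0.05) and the matrix protein *FN1* (0.22 ± 0.05) also rose. The gelatinase gene *MMP2* had 7493, 8233 and 7776 counts in CBX8 KO and 5445, 5655 and 5494 counts upon re-expression, a log2 fold change of -0.59 ± 0.05 (SE, edgeR FDR = 1.3e-09). The crosslinking enzyme *LOX* (-0.54 ± 0.05), the chromatin protein *HMGA1* (-0.41 ± 0.06) and *CD44* (-0.21 ± 0.05) fell as well, *CD44* no longer without CBX8 KO replicate 1 (FDR = 0.0756). The collagenase genes *MMP1* and *MMP13*, both classical AP-1 targets, had log2 fold changes of -0.0092 and -0.01 (edgeR FDR = 0.99 and 0.97). *MMP3*, also on the list and named after its values were seen, rose by 0.49 ± 0.13 (SE, edgeR FDR = 0.0093). Its groups did not overlap, and it was called in 14 of the 18 alternatives.

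Heat shock genes, which respond to handling stress, were read beside these genes. Of 11, 8 were tested, 2 were called lower and 1 higher (6.63% and 6.23% of all tested genes), and their summed level ran from 5675 to 6455 CPM in CBX8 KO and from 6081 to 6349 CPM upon re-expression. *BAG3* fell by 0.20 ± 0.05 and *HSPE1* by 0.18 ± 0.06, while *HSPB1* rose by 0.15 ± 0.05. Both *HSPE1* and *HSPB1* lost their calls when any of 4 libraries was left out (FDR of at most 0.231 and 0.153), which were CBX8 KO replicates 1 and 3 and re-expression replicates 1 and 2 for *HSPE1*, and CBX8 KO replicates 1 and 2 and re-expression replicates 2 and 3 for *HSPB1*. *HSPA1A* and *HSPA1B* were listed at 0 in every library and lie on 4 alternate contigs of hg38 each. Their next best places matched 88.3% and 84.2% of the bases, so their levels are uncertain.

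**Figure D4:**
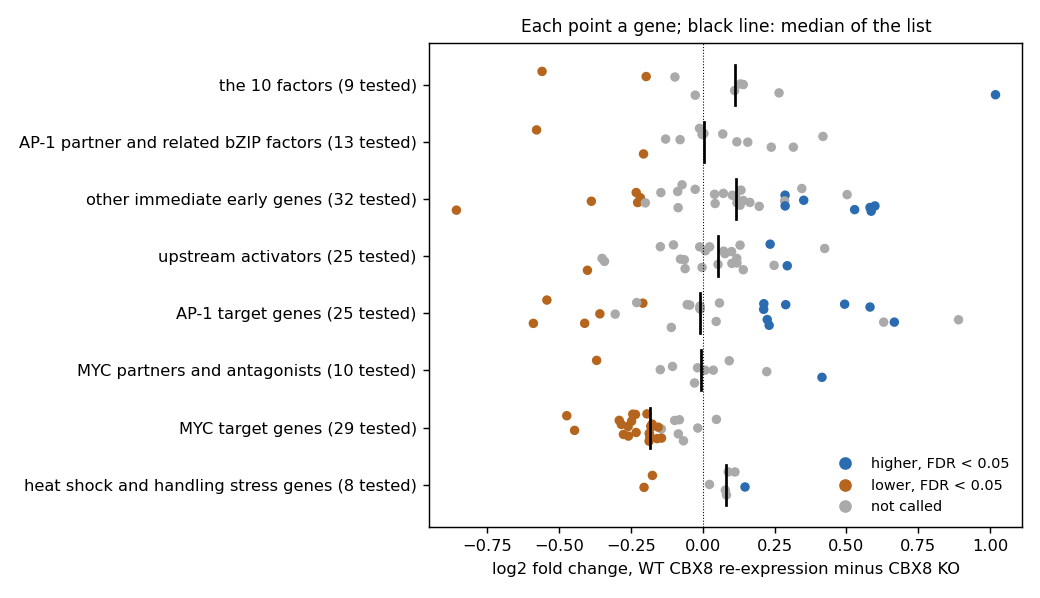
Log2 fold change of each tested gene of the 10 factors and 7 related lists, WT CBX8 re-expression minus CBX8 KO, with genes called higher in blue, called lower in brown and not called in grey, and a black line at the median of each list. The MYC target genes lie almost entirely below 0 (median -0.19), while immediate early and AP-1 target genes are spread on both sides of 0.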

How the data were processed

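RNA-seq counts were analysed for 6 libraries of T98G CBX8 KO cells, 3 with the empty vector and 3 with WT CBX8 re-expression, grouped by their titles. The table deposited by the authors holds unnormalized counts for each gene symbol. Per the paper's methods and the submitters' processing notes, adapters were trimmed with Trimmomatic and reads aligned to hg38 with HISAT2. Versions, counting program, annotation and strand setting are not given in the sources used here. Low genes were removed with filterByExpr (edgeR 4.0.16 in R 4.3.3). After TMM scaling, groups were compared by glmQLFit and glmQLFTest (edgeR's quasi-likelihood test) with condition as the single term, and FDR (Benjamini-Hochberg) < 0.05 was called. The test was checked on simulated data. CPM was taken over effective (TMM) library sizes. Each standard error was derived from the F statistic, as |log2 fold change|/sqrt(F). The 18 alternatives comprised scaling by RLE, by upper quartile or by library size alone, DESeq2 1.42.0, limma 3.58.1 voom, glmQLFit with legacy set to FALSE, 2 other filters, 2 stricter thresholds, a replicate block, a GC and length correction, and each library left out in turn. Lengths and positions are from GENCODE release 44, copies were sought with minimap2 2.31 and promoters are RefSeq windows of GRCh38.p14.

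The text names all 10 members and up to 4 called genes in each direction of each list, by adjusted p. Members and lists were chosen with earlier results of these data known. No library pair within a group matched within counting noise (chi-square over degrees of freedom from 2.06 to 3.09). PCR duplicates carry no molecular identifiers, so the depth speaks for counting error only.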

Additional observations from a re-analysis of the deposited data

How the results depend on the processing

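*EGR1* was called higher under all 18 alternatives and *MYC* lower under 17. The number of members called lower was 2, and it was 1 with library size scaling, 1 with DESeq2, 1 at FDR < 0.01 and 0 with a minimum 1.5-fold change, the difference in each case being *JUN* or, under the last, *JUN* and *MYC*. With 1 library left out it was between 1 and 2. The number called higher was 1, and it was 2 with upper quartile scaling, 2 with library size scaling and 2 with limma voom, where *FOSL2* was added. For the scalings and tools the cause was not tested. Over all tested genes, 959 were called lower and 901 higher. These became 592 and 1400 with library size scaling, 569 and 489 at FDR < 0.01 and 144 and 284 with a minimum 1.5-fold change, and 417 were called higher with DESeq2. With 1 library left out they ranged from 635 to 851 and from 593 to 792, lowest without re-expression replicate 2. Genes called lower were 51.6% of the calls, 29.7% with library size scaling, 33.6% with a minimum 1.5-fold change, 57.4% with the GC and length correction and 61.4% with DESeq2. The log2 fold change of *FOSL1* changed sign with library size scaling (0.0286). With 1 library left out it ran from -0.0629 to 0.0265, and that of *FOSB* from -0.0335 to 0.725. A replicate block gave 766 genes called lower and 739 higher, and changed no call among the members. Libraries of the same number did not deviate together (correlations of -0.14, -0.09 and -0.07 across 12018 genes). These values cannot show whether such libraries shared a plating or a batch, which the sources do not state. Depth limited *FOS*, with 2 to 6 counts in a library.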

Other observations

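Several immediate early genes had too few counts to pass the filter and are given by their counts, chosen after their values were seen. *ARC*, a synaptic immediate early gene, had 0, 2 and 2 counts in CBX8 KO and 7, 10 and 5 counts upon re-expression, with no overlap. Without a filter on low counts, its edgeR FDR was 0.029. The nuclear receptor *NR4A3* had 4, 6 and 5 counts in CBX8 KO and 9, 15 and 7 counts upon re-expression, also with no overlap (edgeR FDR = 0.33 without a filter). *EGR2* had 2, 1 and 3 counts in CBX8 KO and 0, 1 and 0 counts upon re-expression (edgeR FDR = 0.45 without a filter). Its groups touched at 1 in raw counts and did not overlap in CPM.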
